A study of Mus musculus with 7 samples.

Results

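Glycolysis and glucose uptake were examined in the nucleus pulposus, the soft centre of the disc between vertebrae, of mice that lack the lactate exporter MCT4. The genes were 31 listed by name, from the glucose carriers through the glycolytic enzymes to the kinases that gate pyruvate oxidation in mitochondria. A gene counted as measured where the platform annotation gave its symbol to a feature, and the feature with the highest mean over the arrays stood for the gene. By this rule 27 of the 31 were measured, among 19505 named genes on the array. Gpi1, Eno1, Pfkfb1 and Pfkfb2 were not analysed here. The 3 MCT4KO animals carried a global deletion of MCT4 and were 14 months old, and the 4 WT animals were 13 months old, which means that an effect of age and one of genotype cannot be told apart. The sample labels give the strain C57BL/6 for all animals, whereas the study's design text names C57Bl/6N for the knockout and C57Bl/6 for WT. If the design text holds, an effect of substrain cannot be told apart from one of genotype either. The nucleus pulposus tissue of all discs of 1 animal made 1 sample, hybridised to 1 Affymetrix array, so each of the 7 arrays is a separate animal. Because the deletion is global, every tissue of the MCT4KO animals lacked the gene, not the disc alone.

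Glycolysis splits glucose into pyruvate in the cytosol and yields ATP without oxygen. Glucose enters through carriers of the Slc2a family, is trapped by a hexokinase, and is committed to the pathway by phosphofructokinase, whose activity is set in part by the bifunctional PFKFB enzymes. Pyruvate is then either reduced to lactate or oxidised in mitochondria, and the pyruvate dehydrogenase kinases (PDKs) switch off its oxidation. Nucleus pulposus has no blood supply of its own and relies largely on glycolysis, so that its cells release much lactate. MCT4 is a carrier that moves lactate and a proton out of such cells.

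The targeted gene checked the labels. Slc16a3, which encodes MCT4, read 5.02, 4.98 and 4.47 on the deposited log2 scale in MCT4KO animals, against 13.55, 13.35, 13.61 and 13.40 in WT animals. The MCT4KO readings lay below the medians of the arrays' negative control features (5.91 to 6.08), and they were at least 179.9-fold lower than those of WT animals. An exact two-sided permutation test of this gene gave p = 0.029, the smallest that the 35 splits of 3 against 4 animals allow, and the limma fit over all genes gave an adjusted p of 6.7e-09. Across all 19505 genes, limma with Benjamini-Hochberg adjustment called 115 (0.590%) at an adjusted p under 0.05, 23 higher and 92 lower in MCT4KO. Nucleus pulposus markers, 12 of them measured, gave list means of 13.81 to 14.07 in MCT4KO animals and 13.57 to 13.83 in WT animals, with 0 called. Of the 12, 9 were above 0 and 3 below, with a median difference of 0.158. All MCT4KO animals were above all WT animals for 2, Col2a1 and Cd24a, as for 5.66% of all genes. Col2a1 had the largest difference of the list, 1.32 (adjusted limma p 0.088), and Cd24a differed by 0.16. In contrast, 15 of 16 neutrophil and myeloid marrow markers were below 0 in the MCT4KO minus WT difference, with 0 called, and their list means were 5.52, 5.03 and 5.03 in MCT4KO animals against 7.11, 8.83, 5.66 and 5.89 in WT animals. WT 1 and WT 2 therefore stood apart in these list means. The list's median difference was -1.005, and its members ran from -4.61 (S100a8) to 0.04 (Prtn3). S100a8, the neutrophil marker with the largest difference of the list, read 5.56, 4.31 and 5.57 in MCT4KO animals against 10.41, 13.04, 7.71 and 7.86 in WT animals. Of 10 end plate and cartilage markers, 6 were below 0 and 1 was called, Snorc (-1.53, adjusted limma p 0.026), with list means of 8.84, 8.25 and 7.71 in MCT4KO animals against 8.41, 8.31, 8.15 and 8.58 in WT animals. MCT4KO 1 stood apart within that list in Col10a1, a marker of hypertrophic cartilage, which read 12.11, 9.02 and 7.18 in MCT4KO animals against 7.02 to 8.50 in WT animals. Of 9 osteoblast and osteocyte markers, 0 were called, 3 were above 0 and 6 below, and the median difference was -0.071. On every array, 6 of the 9 were at or below the control median. List means were 5.41 to 6.01 in MCT4KO animals and 5.68 to 6.21 in WT animals. Ibsp, a bone matrix protein, read 7.43 to 9.65 in MCT4KO animals against 9.75 to 10.95 in WT animals, a difference of -1.94. The part of these cell types in the results below was not tested. Leaving out WT 1 and WT 2, as done below, is no such test. The marrow list means of WT 3 and WT 4 (5.66 and 5.89) also lay above those of every MCT4KO animal.

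None of the 27 measured genes of glycolysis and glucose uptake passed the test. Their adjusted p in the limma fit ran from 0.17 to 0.99, and 0 of 27 were called, where 0.590% of all genes were. At an unadjusted limma p under 0.05, 2 were lower in MCT4KO (Pfkl and Pdk4) and 0 were higher, while 6.90% of all genes were lower and 5.76% higher at that threshold. The difference was above 0 for 15 of the 27 and for 53.0% of all genes, and its median was 0.047 for the 27 and 0.017 for all genes, on the log2 scale. The members' median was -0.029 without MCT4KO 3 (12 above 0), the only single animal whose omission turned its sign. Without any other single animal it stayed above 0, from 0.040 (without WT 1) to 0.106 (without MCT4KO 1, 18 above 0). With WT 1 and WT 2 both left out it was -0.014 (11 above 0). The 3 MCT4KO animals lay wholly below the 4 WT animals for 2 genes, Pfkl and Bpgm, and wholly above them for 1, Pkm, against 6.37% and 5.66% of all genes. The counts of lower genes and of genes without overlap are near those shares. The precision was that of 3 against 4 animals: the 95% confidence interval of the difference stayed within 1 log2 unit of 0 for 23 of the 27, and for 91.2% of all genes. The 4 whose interval reached further were Slc2a3, Hk2, Pfkl and Pdk4. The tissue is a mixture, and fewer cells of a type and less RNA per cell cannot be told apart in such samples.

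**Figure D1:**
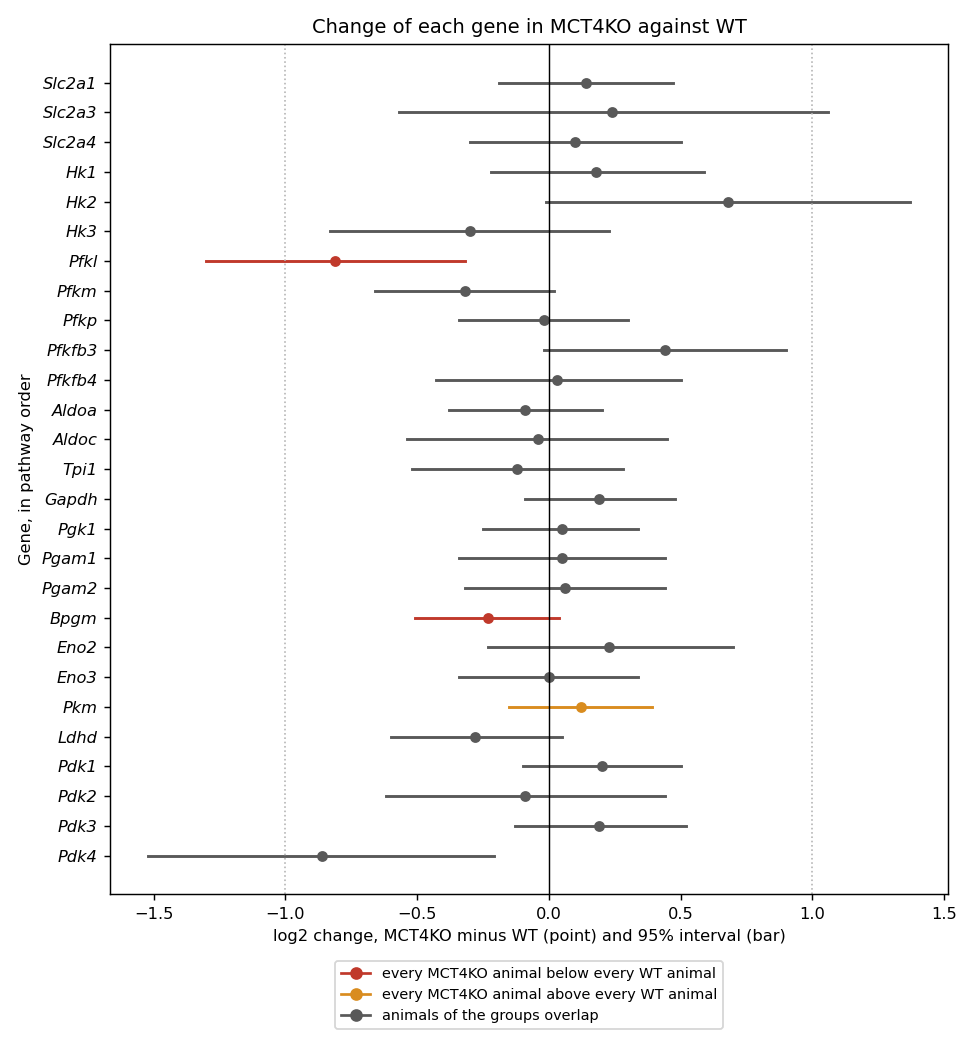
Log2 difference (MCT4KO minus WT, horizontal axis) of each of the 27 measured genes, in pathway order, as points with 95% confidence intervals from the limma fit (n = 3 MCT4KO and 4 WT animals). Red marks the genes with every MCT4KO animal below every WT animal and orange the gene with every MCT4KO animal above; the intervals of Pfkl and Pdk4 lie below 0, and every other interval includes 0.

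Most of the pathway was read well above the array's background. Of the 27 genes, 24 read above the negative control median on every array, and 16 read above the controls' 95th percentile (9.59 to 10.03) on every array, as did 19.1% of all genes. The 16 include Slc2a1, Hk1, Hk2, Pfkl, Pfkp, Pfkfb3, Gapdh and Pkm. No enolase is among them, since Eno2 and Eno3 read lower and Eno1 was not analysed here. The level of the enolase step as a whole is therefore not known. Hk3 and Ldhd read above the control median on 6 of 7 arrays each. Pgam2 was below it on all 7, so that its readings carry no measured level.

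**Figure D2:**
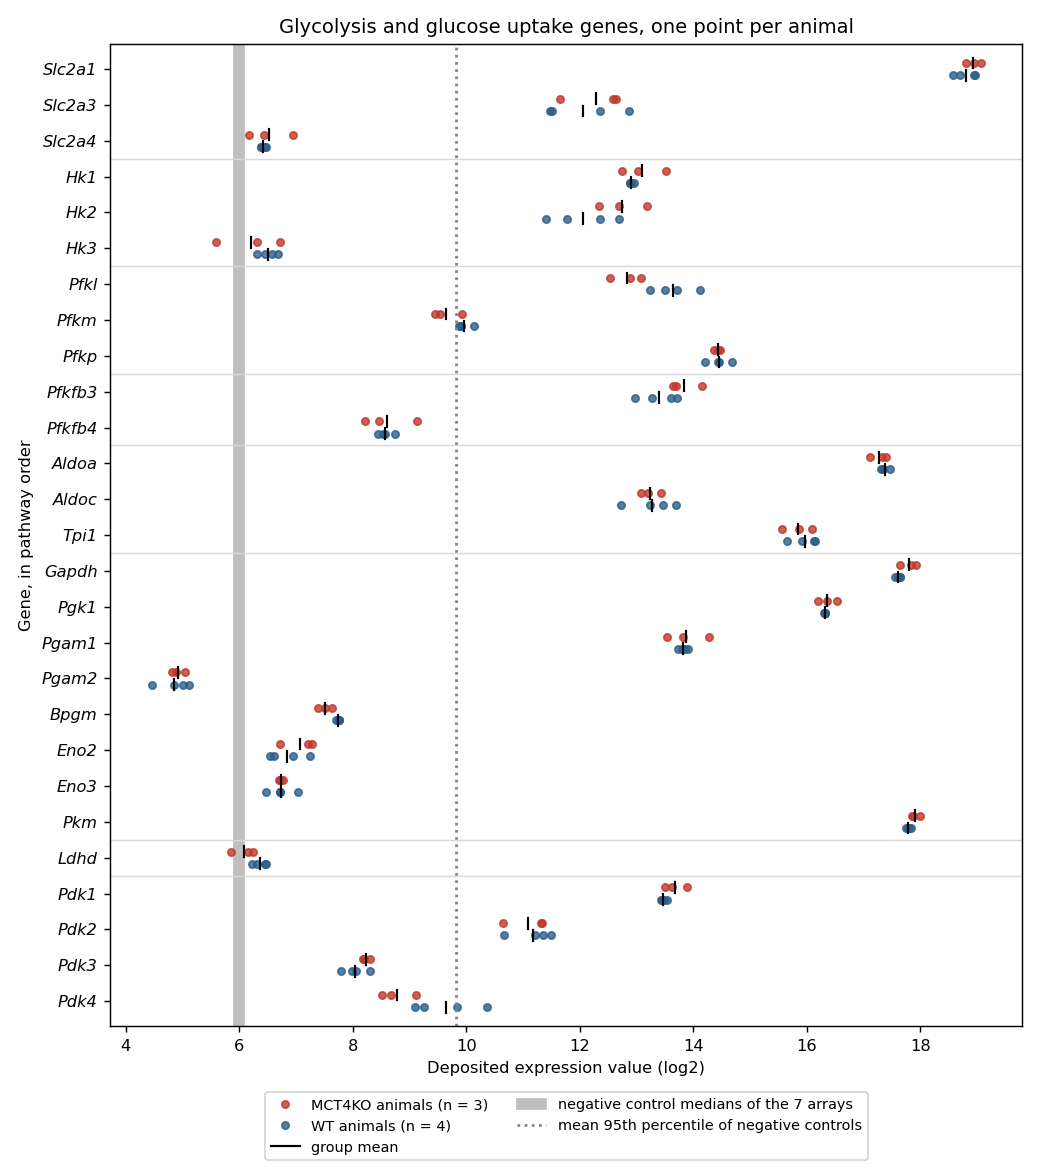
Deposited log2 value (horizontal axis) of each measured gene in each animal, 3 MCT4KO animals (red) drawn above 4 WT animals (blue), with black bars at the group means. The grey band spans the negative control medians of the 7 arrays, the dotted line is the mean of the controls' 95th percentiles, and only Pgam2 lies wholly below the band.

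The HIF response element is the short site that hypoxia-inducible factors bind, and many glycolytic genes are textbook HIF targets. Its core was searched as ACGTG and GCGTG on both strands in the 250 bases before each RefSeq start (GRCm38.p6). The ACGTG core overlaps the E-box CACGTG, so that a match can be either. A core was present for 21 of the 25 measured genes with a sequence in the table (84%), and for 41.5% of all 27025 genes, on the array or not. A gene counted if any of its starts held a core, and genes differ in their number of starts. The 25 members had 36 promoters, and the 27025 genes had 32851. Windows of close starts overlap, as in Aldoa and Pfkm, so that 1 core can count for more than 1 promoter. Counted by promoter, 26 of 36 (72.2%) held a core, against 45.5% of the 19143 promoters of genes on the array. The median GC content of the members' promoters was 58.8%, against 56% in those array genes and 52.4% in all promoters. No base composition was matched, and its part in the share was not tested. The upstream windows of the genes that the results below turn on, and of Pgk1 as a member whose difference was near 0, are printed 5′ to 3′ on the gene's strand, with each core in capitals. Where the table holds several starts of a gene, as for Pfkfb3, the outermost is shown.
Pfkl, chr10:78009808-78010057, minus strand: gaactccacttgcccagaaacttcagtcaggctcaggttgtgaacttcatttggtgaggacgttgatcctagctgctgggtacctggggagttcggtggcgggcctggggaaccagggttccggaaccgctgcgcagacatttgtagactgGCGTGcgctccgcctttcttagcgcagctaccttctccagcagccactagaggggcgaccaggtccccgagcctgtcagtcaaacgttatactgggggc
Hk2, chr6:82774455-82774704, minus strand: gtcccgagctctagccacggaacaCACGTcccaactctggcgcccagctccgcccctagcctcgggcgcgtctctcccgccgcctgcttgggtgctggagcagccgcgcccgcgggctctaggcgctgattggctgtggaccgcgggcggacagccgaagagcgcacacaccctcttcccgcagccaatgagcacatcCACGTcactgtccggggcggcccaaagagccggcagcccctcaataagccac
Pfkfb3, chr2:11553930-11554179, minus strand: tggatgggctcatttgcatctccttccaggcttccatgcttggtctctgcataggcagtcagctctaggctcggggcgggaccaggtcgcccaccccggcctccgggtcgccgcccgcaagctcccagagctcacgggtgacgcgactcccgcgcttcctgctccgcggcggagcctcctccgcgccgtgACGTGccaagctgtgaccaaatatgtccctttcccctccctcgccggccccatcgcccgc
Pdk4, chr6:5496279-5496528, minus strand: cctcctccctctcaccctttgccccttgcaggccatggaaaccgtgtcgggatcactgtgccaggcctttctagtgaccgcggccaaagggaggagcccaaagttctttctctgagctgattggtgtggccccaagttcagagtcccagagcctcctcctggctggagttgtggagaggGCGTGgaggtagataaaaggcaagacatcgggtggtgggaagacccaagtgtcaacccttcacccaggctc
Pgk1, chrX:106186850-106187099, plus strand: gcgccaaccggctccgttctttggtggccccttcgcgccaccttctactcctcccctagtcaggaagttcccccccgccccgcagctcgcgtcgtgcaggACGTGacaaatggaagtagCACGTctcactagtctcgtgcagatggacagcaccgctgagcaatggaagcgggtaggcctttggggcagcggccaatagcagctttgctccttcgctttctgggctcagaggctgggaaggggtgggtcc
The core nearest the start was centred 97 bases upstream for Pfkl, 50 for Hk2, 58 for Pfkfb3, 69 for Pdk4 and 129 for Pgk1. The core was thus present both in genes with a negative difference (Pfkl, Pdk4) and in genes with a positive one (Hk2, Pfkfb3). Measured genes with a sequence but no core were Tpi1 (-0.12), Bpgm (-0.23), Pgam2 (0.06) and Eno2 (0.23), again with both signs. Tpi1 and Eno2 are counted among the textbook HIF targets all the same. A match of these letters is a description, not evidence of binding. Among 17 measured members that are textbook HIF targets, 12 differences were above 0, with a median of 0.120, and 0 were called, where 53.0% of all genes were above 0 with a median of 0.017 and 0.590% were called. Of these 12, Slc2a1, Slc2a3, Pgam1 and Eno2 were below 0 without WT 1 and WT 2. These were the lowest WT animals for each of those genes, so that a fall was fixed in advance.

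Glucose carriers came first in the pathway. Slc2a1 encodes GLUT1, the broadly expressed basal glucose carrier. It read 18.80, 18.94 and 19.07 in MCT4KO animals, against 18.58, 18.70, 18.94 and 18.97 in WT animals, near the highest values of the arrays (19.31 to 19.41). The groups overlapped, with WT 1 and WT 2 lowest, and the difference was 0.14 ± 0.147 (SE), with a 95% interval of -0.19 to 0.47. Whether the scale leaves room for a higher value was not tested. Slc2a3 encodes GLUT3, a high-affinity carrier. It read 12.59, 11.65 and 12.64 in MCT4KO animals against 11.51, 11.48, 12.35 and 12.86 in WT animals, a difference of 0.24 ± 0.365 (SE). Its values fell into a lower set (MCT4KO 2, WT 1 and WT 2) and a higher one that mixed both genotypes, and its interval was wide, from -0.57 to 1.06. Slc2a4, the insulin-regulated carrier of muscle and fat, read 6.18 to 6.95 in MCT4KO animals and 6.38 to 6.48 in WT animals, close to the control medians.

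Of the hexokinases, which phosphorylate glucose and hold it in the cell, Hk2 had the largest positive difference among the 27 genes. Hk2 is the inducible form. It read 12.69, 12.34 and 13.18 in MCT4KO animals, against 11.40, 11.77, 12.70 and 12.35 in WT animals. WT 1 and WT 2 were the lowest of the 7, while WT 3 and WT 4 lay within the MCT4KO range. The mean was 12.74 ± 0.418 in MCT4KO and 12.06 ± 0.581 in WT (SD, n = 3 and 4), a 1.6-fold difference with a 95% interval of 0.992 to 2.59 and an adjusted p of 0.41 in limma. Without WT 1 and WT 2, the difference was 0.21 in place of 0.68. Leaving out the lowest WT animals lowers the difference in any case. Hk1, the constitutive form, read 12.74, 13.02 and 13.52 in MCT4KO animals against 12.88 to 12.95 in WT animals, a difference of 0.18 ± 0.18 (SE). The MCT4KO animals thus lay on both sides of a narrow WT range. Hk3, a form found mainly in blood cells, read 5.59 to 6.71 in MCT4KO animals and 6.32 to 6.69 in WT animals, with a difference of -0.30 ± 0.238 (SE).

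Phosphofructokinase, which commits sugar to glycolysis, is assembled from the liver-type (Pfkl), muscle-type (Pfkm) and platelet-type (Pfkp) subunits. All 3 differences were at or below 0, with a median of -0.32, and Pfkl had the smallest p of the 27 genes. Pfkl read 12.53, 12.89 and 13.08 in MCT4KO animals, against 14.12, 13.23, 13.51 and 13.72 in WT animals. Every MCT4KO animal was below every WT animal, with a gap between MCT4KO 3 and WT 2 that was small beside the spread within WT. The mean was 12.84 ± 0.279 in MCT4KO and 13.64 ± 0.375 in WT (SD, n = 3 and 4). This is 0.572 of the WT level, with a 95% interval of 0.407 to 0.803, an unadjusted limma p of 0.0045 and an adjusted p of 0.17, so that Pfkl was not called. The difference was -0.78 without WT 1 and WT 2, and -0.81 with all animals. Those are the highest and the lowest WT animal for Pfkl, so that leaving out both moves the WT mean little. Without WT 1 alone the difference was -0.648, and without WT 2 alone -0.945.

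Pfkm read 9.54, 9.92 and 9.45 in MCT4KO animals, against 9.91, 10.13, 9.91 and 9.88 in WT animals. MCT4KO 1 and MCT4KO 3 were below all WT animals, and MCT4KO 2 lay among them, giving a difference of -0.32 ± 0.152 (SE; adjusted limma p 0.42). Pfkp read 14.37, 14.44 and 14.48 in MCT4KO animals and 14.46, 14.21, 14.44 and 14.69 in WT animals. The MCT4KO values of Pfkp lay inside the WT range, and its difference was -0.02, with a 95% interval within 1 log2 unit of 0.

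The PFKFB enzymes make and break the sugar bisphosphate that activates phosphofructokinase. Pfkfb3, the form with the strongest kinase bias, read 13.70, 13.65 and 14.15 in MCT4KO animals, against 13.28, 12.97, 13.60 and 13.71 in WT animals. WT 1 and WT 2 were again the lowest, and WT 4 lay inside the MCT4KO range. The difference was 0.44 ± 0.205 (SE), with a 95% interval of -0.02 to 0.90 and an adjusted limma p of 0.42. It was 0.18 without WT 1 and WT 2, whose low readings make a smaller difference certain. Pfkfb4, a form abundant in testis, read 8.22, 9.13 and 8.47 in MCT4KO animals, against 8.44 to 8.74 in WT animals, a difference of 0.03 ± 0.207 (SE). MCT4KO 1 was the lowest and MCT4KO 2 the highest of all 7.

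Aldolase splits the sugar bisphosphate and triose phosphate isomerase interconverts the products. Aldoa, the muscle and general form, read 17.11, 17.33 and 17.40 in MCT4KO animals against 17.31 to 17.47 in WT animals. Aldoc, the brain form, read 13.20, 13.08 and 13.43 in MCT4KO animals against 12.72, 13.69, 13.24 and 13.47 in WT animals. Tpi1 read 15.56, 15.87 and 16.10 in MCT4KO animals against 15.65 to 16.15 in WT animals. In all 3 the groups overlapped, and the differences were -0.09, -0.04 and -0.12 with SEs of 0.13, 0.22 and 0.178.

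The enzymes from Gapdh to pyruvate kinase, which recover ATP and NADH, gave small differences. Gapdh, the dehydrogenase that makes NADH, read 17.65, 17.84 and 17.93 in MCT4KO animals against 17.65, 17.56, 17.65 and 17.60 in WT animals. MCT4KO 2 and MCT4KO 3 were above every WT animal, while MCT4KO 1 read the same as the highest WT animals, and the difference was 0.19 ± 0.126 (SE). Pkm, pyruvate kinase of muscle and most other tissues, read 17.87, 17.86 and 18.00 in MCT4KO animals against 17.83, 17.78, 17.75 and 17.81 in WT animals. The groups did not overlap, but the difference was 0.12 ± 0.119 (SE), with a 95% interval of -0.15 to 0.39 and an adjusted limma p of 0.7. The splice forms of Pkm were not separated here.

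Pgk1, which makes ATP at the first substrate-level step, read 16.19, 16.36 and 16.54 in MCT4KO animals against 16.30 to 16.33 in WT animals. Pgam1, the general phosphoglycerate mutase, read 13.53, 13.82 and 14.28 in MCT4KO animals against 13.74 to 13.90 in WT animals. In both, MCT4KO 1 was lowest and MCT4KO 3 highest of the 7, so that the WT animals lay between them, and both differences were 0.05. Bpgm, which makes the bisphosphoglycerate that lowers the oxygen affinity of haemoglobin in red cells, read 7.38, 7.64 and 7.51 in MCT4KO animals against 7.70 to 7.76 in WT animals. The groups did not overlap, and the difference was -0.23 ± 0.124 (SE; adjusted limma p 0.47). Erythroid markers, of which 5 of 13 were measured, all had a negative difference with 0 called. Their list means were 5.83, 5.67 and 5.59 in MCT4KO animals against 5.99, 6.77, 5.70 and 5.73 in WT animals. WT 2 stood apart, and 2 of the 5 markers were at or below the control median on every array. The part of erythroid cells in the Bpgm difference was not tested.

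Of the enolases, which make phosphoenolpyruvate, Eno1 was not analysed here. The neuronal form Eno2 read 6.72, 7.28 and 7.21 in MCT4KO animals against 6.62, 6.54, 6.95 and 7.24 in WT animals. The muscle form Eno3 read 6.70, 6.77 and 6.72 in MCT4KO animals against 6.47, 6.71, 7.03 and 6.71 in WT animals. Both groups overlapped in each gene, with differences of 0.23 ± 0.208 for Eno2 and -0.00 for Eno3. Muscle lies beside the disc, and 8 of 17 muscle markers were at or below the control median on every array. The muscle list mean was 5.42 to 5.90 in MCT4KO animals and 5.44 to 5.95 in WT animals. Ldhd, the mitochondrial dehydrogenase of D-lactate, read 5.85, 6.25 and 6.16 in MCT4KO animals against 6.22 to 6.48 in WT animals. Its readings lay near background, with a difference of -0.28 ± 0.145 (SE; adjusted limma p 0.46).

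The PDKs phosphorylate pyruvate dehydrogenase and so hold pyruvate back from oxidation. Pdk4, the form induced by fasting and fatty acids, had the largest negative difference of the 27 genes. It read 8.68, 8.52 and 9.12 in MCT4KO animals, against 9.25, 9.10, 9.84 and 10.36 in WT animals. MCT4KO 3 was just above WT 2, so that the groups overlapped by this 1 pair, and WT 4 was the highest. The mean was 8.77 ± 0.312 in MCT4KO and 9.64 ± 0.581 in WT (SD, n = 3 and 4), or 0.55 of the WT level with a 95% interval of 0.349 to 0.867. The unadjusted limma p was 0.015 and the adjusted p 0.28. The difference was -1.33 without WT 1 and WT 2, and -0.86 with all animals. The smaller set keeps WT 3 and WT 4, which had the highest Pdk4 readings. The part of marrow cells in the Pdk4 difference was not tested.

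Pdk1, a HIF target, read 13.51, 13.62 and 13.89 in MCT4KO animals against 13.44 to 13.53 in WT animals. MCT4KO 2 and MCT4KO 3 were above all WT animals and MCT4KO 1 was among them, a difference of 0.20 ± 0.135 (SE). Pdk2, the widely expressed form, read 10.64, 11.32 and 11.33 in MCT4KO animals against 11.50, 11.22, 11.35 and 10.67 in WT animals. One animal of each group stood low in Pdk2. Pdk3 read 8.18, 8.20 and 8.31 in MCT4KO animals against 7.80 to 8.30 in WT animals, a difference of 0.19 ± 0.147 (SE).

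Several genes shared an order of the animals that crossed the genotypes, described here after the values were seen. WT 1 and WT 2 were the lowest 2 of the 7 animals in 5 of the 27 genes (Slc2a1, Slc2a3, Hk2, Pfkfb3 and Eno2), and in 6.13% of all genes. The same animals had the highest list means of the marrow markers, though not the highest value of every marker in that list. Without them, the differences of Slc2a1, Slc2a3 and Eno2 were -0.01, -0.31 and -0.03, on the other side of 0. A fall was fixed in advance here, because the animals left out were the lowest for these genes. Only its size depends on the values. MCT4KO 3 was the highest of all animals in 10 of the 27 genes, against 14.7% of all genes. MCT4KO 1 was the lowest in 10 of the 27, against 19.7% of all genes. MCT4KO 1 is also the animal with the highest Col10a1. The median deviation of the 27 genes from the WT mean was -0.08, 0.03 and 0.15 in MCT4KO animals 1 to 3, and -0.02, -0.05, 0.01 and 0.03 in WT animals 1 to 4.

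**Figure D3:**
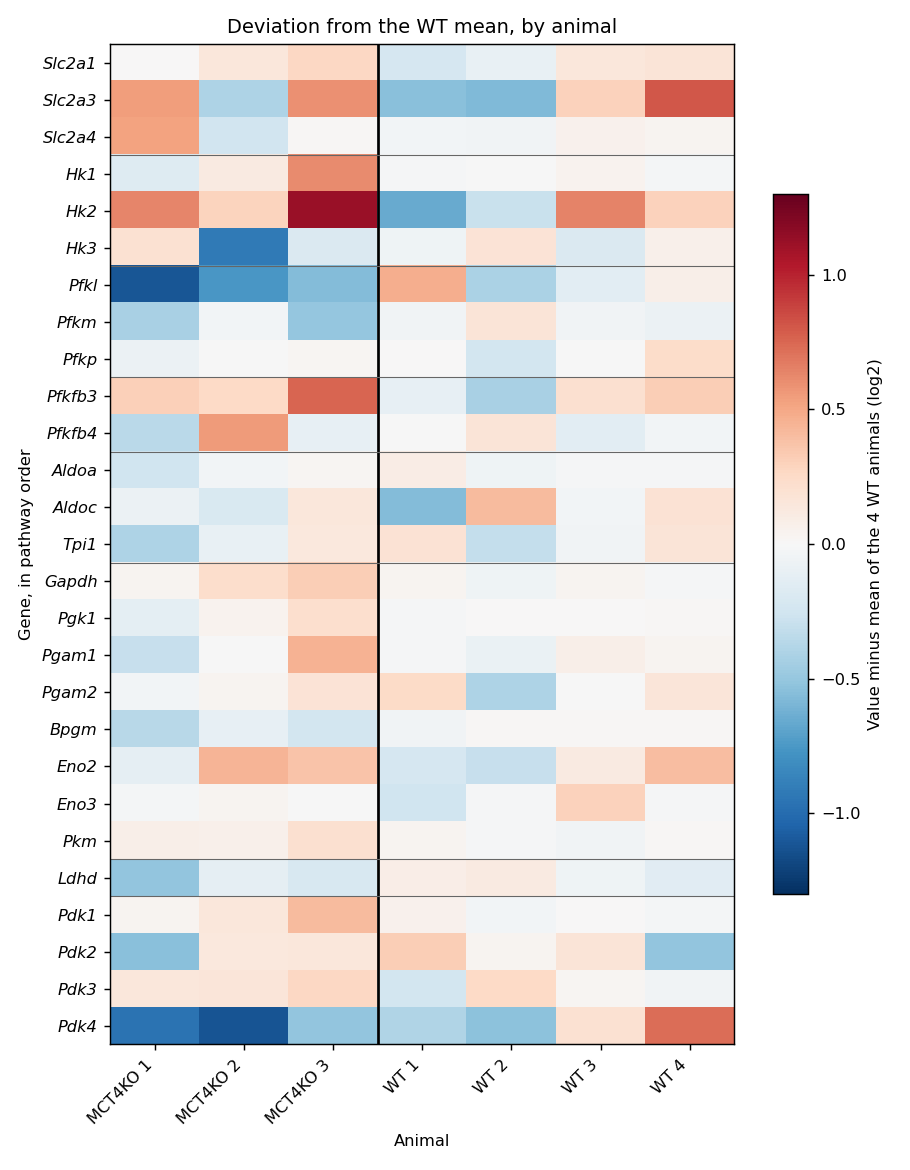
Heat map of each measured gene's log2 value minus the mean of the 4 WT animals, with genes in rows in pathway order and the 7 animals in columns, MCT4KO at the left. Red is above and blue below the WT mean; Pfkl and Pdk4 are blue in all 3 MCT4KO animals and Hk2 and Pfkfb3 red, while WT 1 and WT 2 are blue for Slc2a3, Hk2 and Pfkfb3.

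The balance between isoforms of a step was read as the within-array difference of log2 values, for 12 of 16 listed pairs. These are differences between probe sets and do not measure relative abundance, so only their change between genotypes is read. Groups did not overlap for 2 of the 12 pairs, and for 13.2% of all gene pairs on the array. Pfkl minus Pfkp was -1.83, -1.54 and -1.40 in MCT4KO animals, against -0.34, -0.98, -0.93 and -0.97 in WT animals. All MCT4KO values were lower, by 0.79 on average, and WT 1 stood above the other WT animals. Pdk4 minus Pdk1 was -4.83, -5.10 and -4.77 in MCT4KO animals, against -4.28, -4.34, -3.65 and -3.08 in WT animals, a change of -1.06. Pfkl and Pdk4 are the genes with the smallest p above, so these pairs are no separate evidence. Hk2 minus Hk1 was -0.05, -0.68 and -0.34 in MCT4KO animals, against -1.49, -1.13, -0.25 and -0.53 in WT animals. The hexokinase pair overlapped, and its change of 0.50 was 0.04 without WT 1 and WT 2. Both had the lowest WT values of this pair, so that leaving them out had to lower the change.

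**Figure D4:**
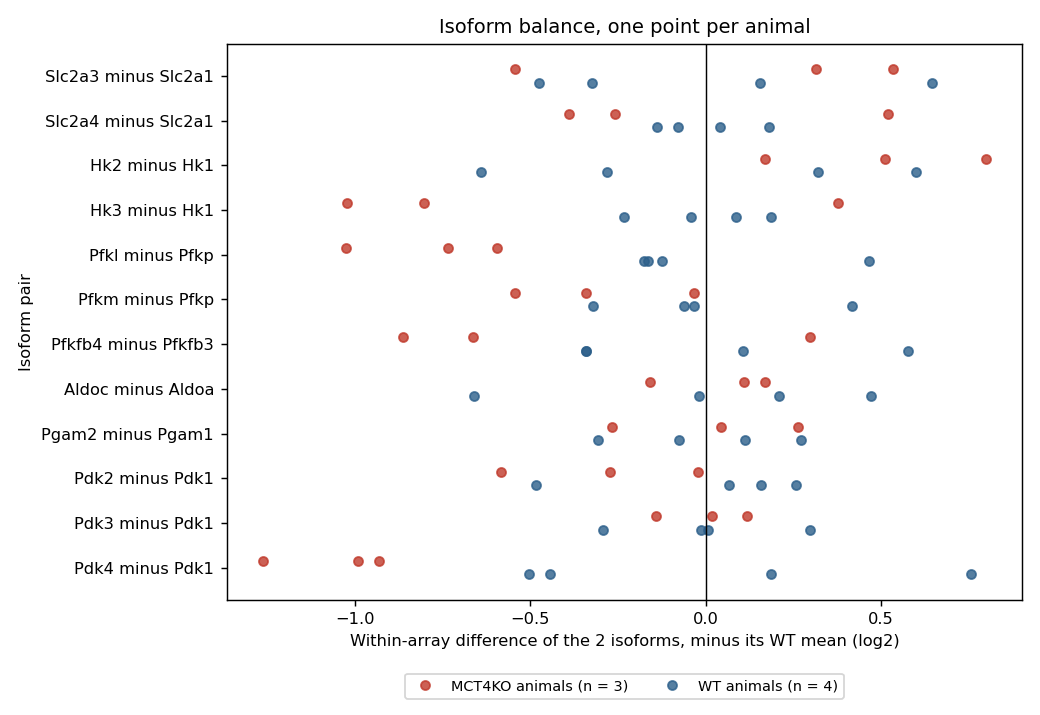
Within-array log2 difference between isoforms of the same step, minus its WT mean (horizontal axis), 1 point per animal, for the 12 measured pairs, with MCT4KO animals (red) drawn above WT animals (blue). The points of the groups separate for Pfkl minus Pfkp and for Pdk4 minus Pdk1 and overlap in the other pairs.

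Genes next to the pathway were likewise not called. Of 71 listed carriers, alternative isoforms and enzymes of gluconeogenesis, glycogen, the pentose phosphate pathway, pyruvate entry and the glycerol and serine branches, 65 were measured and 0 were called by limma. At an unadjusted p under 0.05, 3 were higher and 5 lower in MCT4KO, against 5.76% and 6.90% of all genes, and the median difference was 0.025. Groups did not overlap for 3 higher and 4 lower neighbours, against 5.66% and 6.37% of all genes. Phkb, a regulatory subunit of phosphorylase kinase, which drives glycogen breakdown, read 9.90, 9.98 and 10.01 in MCT4KO animals against 11.11, 10.67, 10.45 and 10.58 in WT animals. The MCT4KO animals were close together and all below WT, with a difference of -0.74 ± 0.169 (SE; adjusted limma p 0.1). Mpc1, a subunit of the mitochondrial pyruvate carrier, read 14.60, 14.67 and 14.98 in MCT4KO animals against 14.42, 14.50, 14.34 and 14.15 in WT animals. All MCT4KO values were higher, with a difference of 0.40 ± 0.149 (SE; adjusted limma p 0.32). Pcx, pyruvate carboxylase, had a difference of -0.94 ± 0.271 (SE) without overlap of the groups, and an adjusted limma p of 0.2. The others under that threshold and named by the rule were the carriers Slc2a2 (-0.60) and Slc2a10 (-0.36) and the liver glycogen synthase Gys2 (0.53), with adjusted limma p of 0.23, 0.3 and 0.28.

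The lactate dehydrogenases, which link pyruvate to the lactate that MCT4 exports, were looked at for their place in the pathway after their values were seen. Ldha, whose product favours making lactate, read 17.46, 17.40 and 17.57 in MCT4KO animals against 17.41, 17.23, 17.30 and 17.33 in WT animals. Its difference was 0.16 ± 0.123 (SE; adjusted limma p 0.62), and MCT4KO 2 lay just under WT 1. Ldhb, the heart form, read 8.18, 7.94 and 8.81 in MCT4KO animals against 9.15, 8.88, 8.48 and 8.64 in WT animals. MCT4KO 3 lay among the WT animals, and the difference was -0.48 ± 0.23 (SE; adjusted limma p 0.43).

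**Figure D5:**
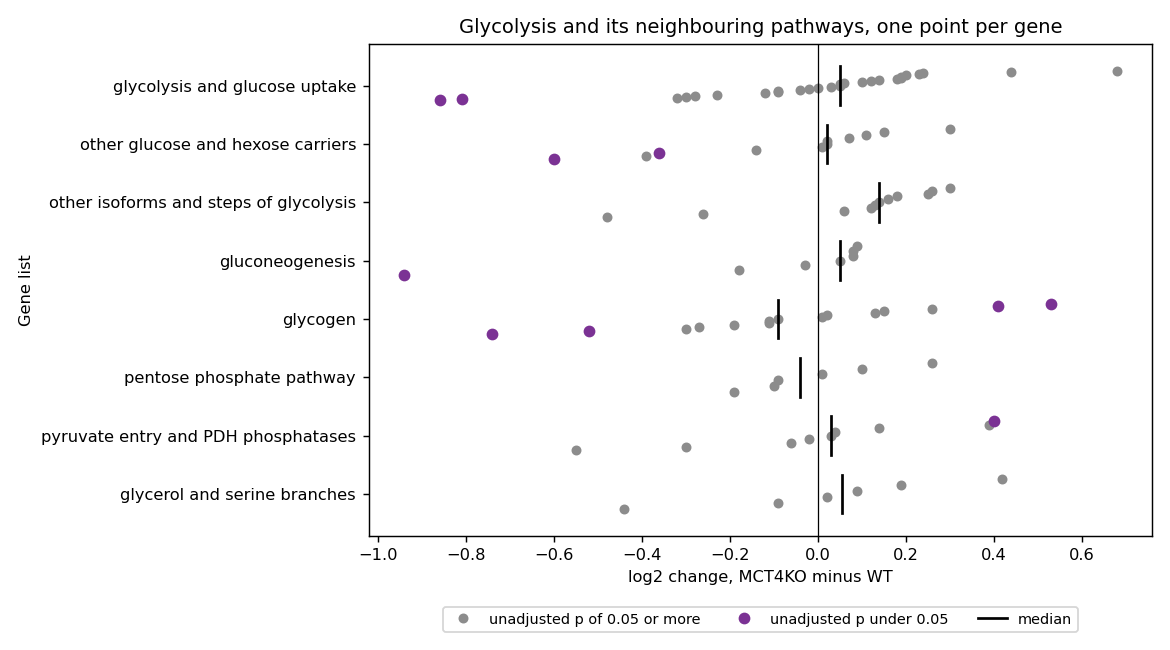
Log2 difference (MCT4KO minus WT, horizontal axis) of the 27 measured genes of glycolysis and glucose uptake (top row) and of the 65 measured neighbours in 7 lists, 1 point per gene, with a black bar at each list's median. Purple points have an unadjusted limma p under 0.05, and genes scatter on both sides of 0 in every list.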

How the data were processed

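RNA of nucleus pulposus of 7 mice, 3 MCT4KO and 4 WT, was measured on Affymetrix whole-transcript arrays, 1 per animal. The authors deposited log2 values per transcript cluster, for which the submitters' processing notes name Affymetrix Expression Console 1.4.1; how they were normalized and background-corrected is not given in the sources used, and the values run to 19.41, above a scanner's usual log2 range. Of 28846 features, 19572 had a single gene symbol, giving 19505 genes by the brightest feature, and 5222 negative controls set the background. Values were used as deposited. limma 3.58.1 in R 4.3.3 (lmFit, eBayes) compared the groups with Benjamini-Hochberg adjustment, two-sided, called at 0.05. The script was tested on simulated data. Genes named are all members, Slc16a3, up to 2 neighbours per list by p, and markers that move with a result; Ldha, Ldhb and the markers printed were chosen after their values were seen. No batch is labelled. Samples were treated as unpaired. Deviations of same-numbered animals correlated at -0.127, 0.016 and 0.05, which shows no strong shared signal but cannot tell whether they were processed together. The planned protein comparison of isoforms was not run. Members and lists were chosen with earlier results of these data known. The number of animals limits the precision. Alternatives covered normalization, filters, variance models and leaving out animals.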

Additional observations from a re-analysis of the deposited data

Results flagged for a closer look

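Within-group outliers were sought by Dixon's ratio in the 4 WT animals, for the members, Slc16a3 and the 6 neighbours named by rule. Pfkm in WT 2 read 10.13, where the other WT animals read 9.88 to 9.91, a ratio of 0.851. Bpgm in WT 1 read 7.70, where the other WT animals read 7.76, a ratio of 0.971, although the distance itself was small. Chance flags about 1 in 20 groups, and 34 genes were tested.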

How the results depend on the processing

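No measured member was called under any of the 16 alternatives, where the smallest adjusted p of a member was 0.12 in limma. The differences of Pfkl (-0.95 to -0.65), Pdk4 (-1.33 to -0.62), Hk2 (0.21 to 0.90) and Pfkfb3 (0.18 to 0.55) kept their sign in all of them. In all, 12 members kept their sign and 15 did not. The members' median ran from -0.029 (without MCT4KO 3) to 0.106 (without MCT4KO 1) and was -0.014 without WT 1 and WT 2, with 11 to 18 members above 0. The count of called genes over the whole array, 115 in the main fit, was 26 with values raised to the control medians, 6 with the replicate block, 16 without WT 1 and WT 2, and 15 to 64 when 1 animal was left out. Leaving out any 1 of the 7 animals lowered it, to 15 without MCT4KO 3 and to 64 without MCT4KO 2. The replicate block pairs animals by number, which leaves WT 4 without a partner, and it called 0 members. Members that crossed 0 did so with quantile normalization (Aldoc 0.007, Pgam2 -0.027, Eno3 0.008 and Pdk2 0.001), with values raised to the control medians (Pgam2 -0.008), with the replicate block (Pfkp 0.062 and Aldoc 0.019), and without WT 1 and WT 2 (Slc2a1 -0.014, Slc2a3 -0.313, Pgam1 -0.004, Pgam2 -0.013, Eno2 -0.027 and Pdk2 0.084). With 1 animal left out, the ranges that crossed 0 were -0.261 to 0.139 for Pdk2, -0.231 to 0.094 for Aldoc, -0.073 to 0.143 for Pgam2, -0.230 to 0.227 for Pfkfb4, -0.091 to 0.097 for Eno3, -0.100 to 0.061 for Pfkp, -0.114 to 0.269 for Slc2a4, -0.243 to 0.023 for Tpi1, -0.553 to 0.006 for Hk3, -0.029 to 0.362 for Hk1, -0.043 to 0.133 for Pgk1 and -0.150 to 0.221 for Pgam1. The cause was not tested. Readings near the control medians (Pgam2, Hk3, Ldhd and Slc2a4) are limited by background.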
